A study of Homo sapiens with 6 samples.

Results

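The genes described here encode the machinery that copies DNA, in order of action: the factors that load and fire replication origins, the replicative polymerases, the sliding clamp with its loaders, the proteins that bind and join DNA strands, and the proteins that protect the moving fork. They are a list of symbols chosen by function, with earlier results of these data known. There are 47 of them among the 62703 Ensembl gene IDs of the table, and each symbol matched 1 ID. They were measured by RNA sequencing of poly(A)-enriched RNA in the osteosarcoma line MNNG/HOS Cl #5, of human origin and labelled wild type, after 7 days of culture. Cells seeded in a scaffold of demineralised bone matrix (dBM, called 3D here, 3 libraries) were compared with cells grown flat (2D, 3 libraries). Both groups were kept in high-sugar DMEM with 4 mM L-glutamine and 10% fetal bovine serum. The cell line is the same in all 6 libraries, and the labels do not say whether libraries of a group came from separate cultures, so p-values measure the spread between these libraries, which may be technical.

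In a dividing cell, the origin recognition complex with CDC6 and CDT1 loads the MCM helicase onto DNA in G1, a step called licensing. At the start of S phase the kinase CDC7 with DBF4, together with CDC45, the GINS complex and several adaptors, turns loaded helicases into active forks. Polymerase alpha with primase then starts each strand, and polymerases epsilon and delta extend it on the clamp PCNA. Many of these genes are known targets of the E2F transcription factors, which are released from the retinoblastoma protein in late G1.

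The deposited values are FPKM, fragment counts divided by gene length and by the fragments of the library. The steps between these values gave library totals of 13334218 to 16363570 reads for 3D and 13652957 to 14241462 reads for 2D. Each of the 47 genes had 84 to 4677 reads in each library. The test took in the 12843 genes that reached 1 FPKM in 3 or more libraries, and 46 of the 47 were among them. Of 8 osteoblast and mesenchymal markers 7 reached 1 FPKM in some library. The sum of the 8 was 392.5 to 412.5 FPKM in 3D and 591.4 to 808.4 in 2D, mostly VIM. The lower sum in 3D was set by VIM and does not describe the other markers, some of which were higher in 3D. ALPL, an osteoblast enzyme, was near 0, at 0.0291 to 0.0475 FPKM in 3D and 0 to 0.0225 in 2D. Summed markers of osteocytes (0 of 4 at 1 FPKM) were at 0.145 to 0.214 FPKM in 3D and 0.0443 to 0.101 in 2D, and of endothelium (0 of 4) at 0.248 to 0.385 in 3D and 0.18 to 0.284 in 2D. Those of adipocytes (1 of 4) were at 0.926 to 1.44 FPKM in 3D and 0.467 to 0.719 in 2D, and of epithelium (2 of 4) at 44.9 to 55.5 in 3D and 26.0 to 33.3 in 2D, the last mostly KRT18. Blood and marrow markers (3 of 6) summed to 5.01 to 9.93 FPKM in 3D and 18.6 to 41.0 in 2D, with CD3E at 0 in each library, and CD68 and the globins HBB and HBA1 making up nearly all of it. The part of these markers in the results below was not tested. On the second principal component of all tested genes, which held 10.2% of the variance, 3D replicate 1 scored 20.9, and 3D replicates 2 and 3 scored -5.7 and -16; 2D replicates 1 to 3 scored 9.2, 6 and -14.3.

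Of the 46 tested replication genes, 39 were higher in 3D, none was lower and 7 did not pass (limma adjusted p under 0.05). Over all tested genes 33.3% were higher and 18.1% lower, so 51.4% passed in either direction. The median log2 change of the 46 was 0.98, beside 0.14 over all tested genes, and the median ratio of mean FPKM over the 47 was 2.25. Changes are on the log2(FPKM + 1) scale, 3D over 2D, which understates the change of low genes. There were 22 genes past the threshold with a log2 change of at least 1, where 5.52% of all tested genes reached this. For 40 of the 46 each 3D library lay above each 2D library, as for 39% of all tested genes. With GINS1, which was not tested, the groups did not overlap for 41 of the 47, where they did not overlap in either direction for 60.9% of all tested genes. The summed FPKM of the 47 genes was 744.9, 652.1 and 627.9 in 3D replicates 1 to 3, against 319.7, 319.9 and 311.9 in 2D replicates 1 to 3. In bulk RNA, more cells in S phase and more RNA per cell cannot be told apart.

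The steps had different medians, and the differences between them were not tested. All 4 fork protection genes rose, with a median log2 change of 1.29. Licensing had 8 of 9 genes higher with the lowest median among the steps, 0.58, and firing 8 of 9 tested genes with a median of 1.00. The polymerases had 8 of 9 higher (median 0.98) and the clamp with its loaders 7 of 8 (median 0.97). Strand binding and processing had 4 of 7 higher (median 0.69). With median-ratio scaling of the libraries 35 of the 46 were higher, where 24.5% of all tested genes were, and 5 of 9 licensing genes. That scaling lowered the median of all tested genes to 0.01 and gave 3148 genes higher and 3148 lower in all, against 4272 and 2328 with FPKM as deposited.

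**Figure D1:**
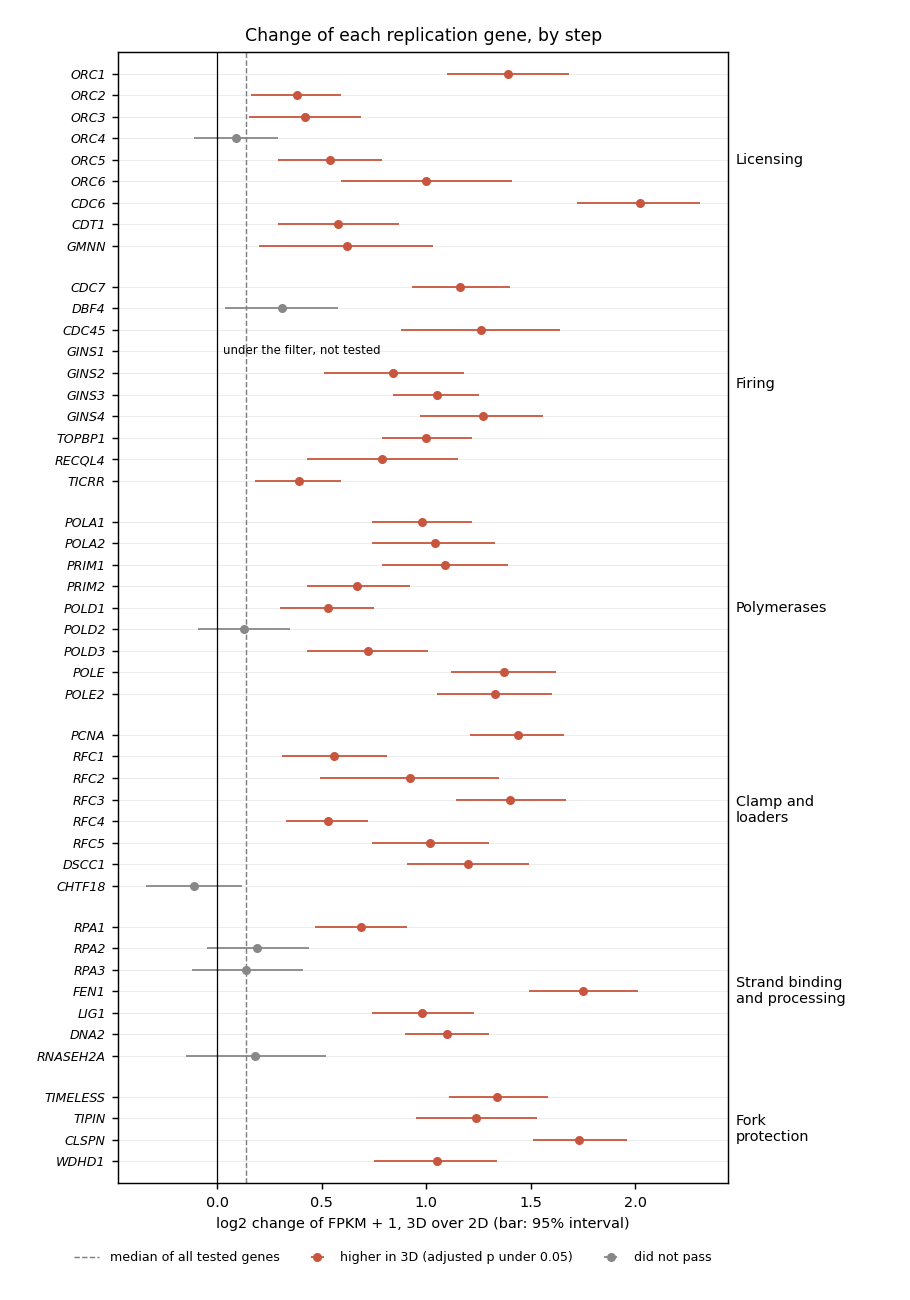
Each row is a gene, and the x axis gives its log2 change of FPKM + 1, 3D over 2D, with a bar for the 95% interval from limma; red points passed an adjusted p of 0.05 and grey points did not. The dashed line is the median of all tested genes, 0.14; CDC6 lies farthest right at 2.02 and CHTF18 lies left of 0 at -0.11.

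A property of the table bears on the levels of these genes. The shortest gene length that turned each FPKM into whole reads in the 6 libraries (within 0.01 reads) was longer than the exon length of GENCODE 29 for 45 of the 47 genes and shorter for PCNA and CDT1, with a median ratio of 1.51 (1.5 over 12523 tested genes). For GINS1 it was 47170 bases against 4068, for POLD2 46531 against 3695, and for PCNA 580 against 1471. Multiples of these lengths would give whole reads too, so the reads are the fewest that fit. A length this far above the exons gives GINS1 and POLD2 low FPKM for their reads, near the filter and the pseudocount of 1. Levels were therefore also computed from the worked-out reads with GENCODE 29 lengths, an alternative chosen after seeing the data. Those reads rest on the authors' gene models, whose bases may differ from the GENCODE 29 exons. The implied lengths of GINS1 and POLD2 even exceed their whole GENCODE 29 spans. Levels and ranks with GENCODE 29 lengths may be off for such genes. They would be too low for PCNA if its length in the authors' models is a multiple of 580 bases. Neither was tested.

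**Figure D2:**
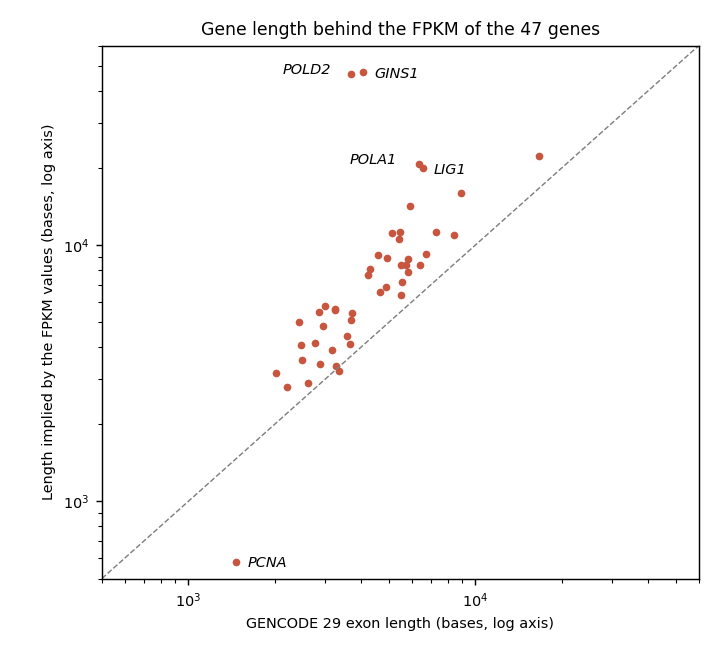
Each point is 1 of the 47 genes, with the GENCODE 29 exon length on the x axis and the length implied by the FPKM values on the y axis, both in bases on log axes; the dashed line marks equal lengths. GINS1 (47170 bases implied) and POLD2 (46531) lie far above the line and PCNA (580) below it.

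By the deposited FPKM, PCNA had the highest level of the 47 in 3D (123.5 ± 9.57, SD, n = 3), before RPA1 (46.4 ± 3.47), FEN1 (36.2 ± 4.25) and RFC3 (33.6 ± 4.07). With GENCODE 29 lengths the order in 3D was RPA1 (54.3 ± 4.06), FEN1 (52.2 ± 6.13), PCNA (48.9 ± 3.79), RFC3 (40.1 ± 4.86) and RFC1 (37.2 ± 2.27). The place of PCNA in that order rests on the fewest reads that fit, and more reads would raise it. Neighbours in that order differed by less than the larger SD of the pair except PCNA and RFC3. GINS1, the lowest of the 47 by deposited FPKM in 3D, ranked 31 with these lengths, and POLD2 moved from rank 44 to rank 13. DBF4 (2.83 ± 0.306) and ORC4 (2.69 ± 0.22) then stood lowest in 3D, and differed by less than either SD.

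**Figure D3:**
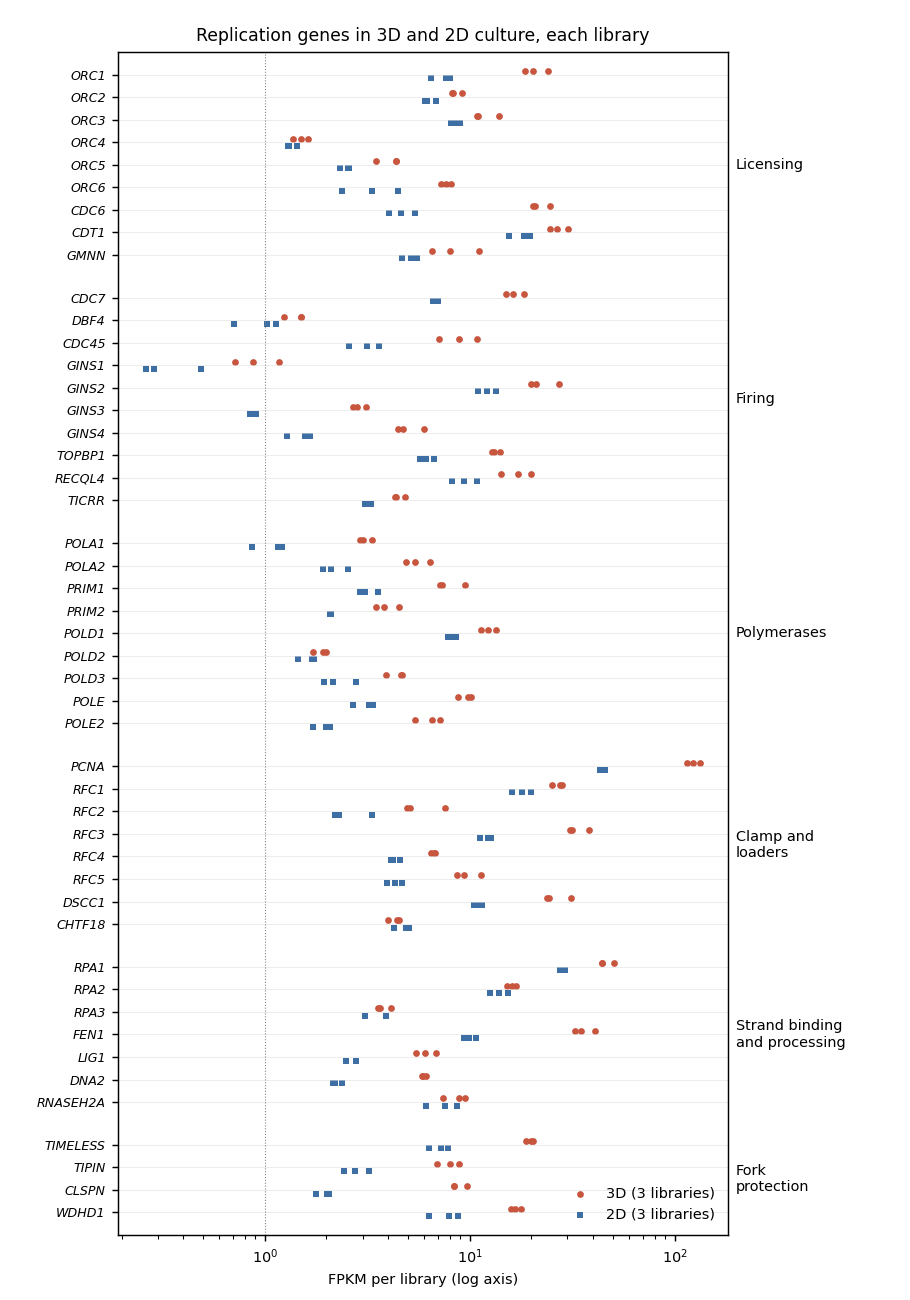
Each row is a gene with its FPKM in the 3 libraries of 3D (red circles) and the 3 of 2D (blue squares) on a log axis; the dotted line marks 1 FPKM, the minimum of the filter. For most genes the 3D points lie wholly to the right, and for ORC4, POLD2, CHTF18, RPA2, RPA3 and RNASEH2A the groups overlap.

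Licensing starts with the origin recognition complex, whose 6 subunits spread widely in their change. ORC1, the subunit that in human cells is removed after G1 and made again, is on chromosome 1 (52372829 to 52404459; positions of genes are those of GENCODE 29 on GRCh38). It had 24.0, 20.4 and 18.7 FPKM in 3D replicates 1 to 3, against 6.5, 8.04 and 7.64 in 2D replicates 1 to 3. Its log2 change was 1.39 (SE 0.12, limma adjusted p = 0.000372), and the groups did not overlap. ORC6, the smallest subunit, averaged 7.65 ± 0.448 FPKM in 3D and 3.4 ± 1.05 in 2D (SD, n = 3 each, as in all means below), with a log2 change of 1.00. The core subunits ORC2, ORC3 and ORC5 rose less, with log2 changes of 0.38, 0.42 and 0.54. ORC2 (chromosome 2, 200908973 to 200963680) had 9.21, 8.22 and 8.33 FPKM in 3D, against 6.06, 6.22 and 6.88 in 2D, without overlap. ORC4, another core subunit (chromosome 2, 147930397 to 148021604), had 1.37, 1.62 and 1.51 FPKM in 3D, against 1.31, 1.3 and 1.43 in 2D. These groups overlapped, and ORC4 did not pass (log2 change 0.09, 95% interval -0.11 to 0.29, limma adjusted p = 0.408). The ratio of ORC1 to ORC2, which does not depend on the scaling of libraries, was 2.44 ± 0.189 in 3D and 1.16 ± 0.119 in 2D. The calls of ORC2 and ORC3 were lost with median-ratio scaling (adjusted p = 0.0721 and 0.091) and with upper-quartile scaling (0.0615 and 0.0761). The call of ORC3 was also lost without 2D replicate 1 or 2 (0.0582 and 0.0522).

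CDC6, the ATPase that joins the origin recognition complex to load the helicase, had the largest change of the 47. This gene on chromosome 17 (40287633 to 40304657) had 24.8, 20.4 and 20.8 FPKM in 3D replicates 1 to 3, against 4.6, 4.06 and 5.42 in 2D replicates 1 to 3. The lowest 3D library thus stood well above the highest 2D library, and the mean was 4.69-fold higher (log2 change 2.02, SE 0.13, limma adjusted p = 0.000218). CDT1, which brings the helicase to the origin, averaged 27.2 ± 2.84 FPKM in 3D and 17.9 ± 2.16 in 2D, a log2 change of 0.58. GMNN encodes geminin, the protein that binds and blocks CDT1 after licensing. It averaged 8.55 ± 2.36 FPKM in 3D and 5.12 ± 0.436 in 2D (log2 change 0.62, limma adjusted p = 0.0229). The ratio of CDT1 to GMNN was 2.72, 3.35 and 3.78 in 3D, against 3.58, 4.23 and 2.81 in 2D, and the groups overlapped in this ratio. Of the 3D libraries replicate 1 had the highest GMNN (11.1 FPKM against 7.99 and 6.52), and without it the log2 change was 0.43. The call of GMNN was lost with no filter on low values (adjusted p = 0.0728), with median-ratio and upper-quartile scaling (0.0582 and 0.0537) and without 2D replicate 1 or 2 (0.0581 and 0.0718).

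Among the firing factors the catalytic kinase CDC7 and its activator DBF4 differed in size of change. CDC7, the kinase, averaged 16.6 ± 1.68 FPKM in 3D and 6.82 ± 0.223 in 2D (log2 change 1.16, limma adjusted p = 0.000336). DBF4 (chromosome 7, 87876216 to 87909541) is a subunit that activates CDC7. It had 1.51, 1.24 and 1.5 FPKM in 3D replicates 1 to 3, against 0.706, 1.13 and 1.02 in 2D replicates 1 to 3. Its groups did not overlap, but DBF4 did not pass (log2 change 0.31, 95% interval 0.04 to 0.58, adjusted p = 0.055). It did pass in voom on the worked-out reads (log2 change 0.60, adjusted p = 0.0351) and with GENCODE 29 lengths (0.41, adjusted p = 0.0468). It had 156 to 225 reads per library in 3D and 91 to 141 in 2D, and copies of it named as pseudogenes held up to 42 reads in 3D and 28 in 2D. The ratio of DBF4 to CDC7 was 0.082, 0.0767 and 0.0995 in 3D, against 0.107, 0.161 and 0.15 in 2D, lower in each 3D library than in each 2D library.

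The helicase activators that were tested all rose. CDC45, which binds the helicase at the fork (chromosome 22, 19479459 to 19520612), had 10.8, 8.86 and 7.12 FPKM in 3D, against 3.61, 3.14 and 2.59 in 2D. The groups did not overlap, and the log2 change was 1.26 (SE 0.16; limma adjusted p = 0.000985). GINS is a ring of 4 small subunits that sits beside CDC45, and the 3 that were tested rose. GINS4 (chromosome 8) had 5.97, 4.75 and 4.45 FPKM in 3D, against 1.29, 1.57 and 1.67 in 2D (log2 change 1.27, adjusted p = 0.000459), again without overlap. GINS3 averaged 2.88 ± 0.227 FPKM in 3D and 0.874 ± 0.03 in 2D, and GINS2 averaged 22.8 ± 4.03 in 3D and 12.2 ± 1.22 in 2D. GINS1 (chromosome 20, 25407727 to 25452628) lay under the filter with 0.871, 1.17 and 0.718 FPKM in 3D, against 0.289, 0.263 and 0.488 in 2D. These low values are spread over the implied 47170 bases and rest on 550 to 760 reads per library in 3D and 170 to 329 in 2D, and the groups did not overlap. With GENCODE 29 lengths GINS1 averaged 10.7 ± 2.66 in 3D and 4.03 ± 1.43 in 2D and passed (log2 change 1.23, SE 0.23, limma adjusted p = 0.00408), and 41 of 47 genes were then higher, where 33.1% of all 13955 tested genes were. All 4 GINS genes then had log2 changes between 0.85 and 1.47.

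TOPBP1, the scaffold that bridges factors during firing and in the checkpoint, averaged 13.4 ± 0.669 FPKM in 3D and 6.17 ± 0.485 in 2D (log2 change 1.00). RECQL4, a helicase-family protein that acts in initiation (chromosome 8), averaged 17.1 ± 2.88 FPKM in 3D and 9.47 ± 1.38 in 2D (log2 change 0.79). TICRR, called treslin, which brings TOPBP1 to the helicase (chromosome 15, 89575482 to 89631056), changed least among the firing factors that passed. It had 4.33, 4.38 and 4.85 FPKM in 3D, against 3.28, 3.29 and 3.08 in 2D, without overlap (log2 change 0.39, limma adjusted p = 0.00892). With median-ratio scaling it no longer passed (adjusted p = 0.0596).

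Among the polymerases the largest log2 changes were those of polymerase epsilon, which extends the leading strand. Its catalytic gene POLE (chromosome 12, 132623753 to 132687365) had 8.74, 10.1 and 9.82 FPKM in 3D replicates 1 to 3, against 2.68, 3.21 and 3.38 in 2D replicates 1 to 3. POLE2, its second subunit (chromosome 14, 49643555 to 49688422), had 7.16, 6.52 and 5.43 in 3D, against 1.71, 2.08 and 2.0 in 2D. Neither gene overlapped between groups, and their log2 changes were 1.37 (SE 0.11, limma adjusted p = 0.000301) and 1.33 (SE 0.12, adjusted p = 0.000366). The 4 genes of polymerase alpha-primase, which lays down the RNA-DNA primers, had log2 changes of 0.98 (POLA1, catalytic), 1.04 (POLA2), 1.09 (PRIM1, the catalytic primase subunit) and 0.67 (PRIM2). POLA1 averaged 3.08 ± 0.216 FPKM in 3D and 1.08 ± 0.185 in 2D, and PRIM1 averaged 7.97 ± 1.28 in 3D and 3.2 ± 0.33 in 2D.

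Polymerase delta, which extends the lagging strand, had log2 changes of 0.13 to 0.72 in its 3 genes. POLD1, its catalytic subunit (chromosome 19, 50384204 to 50418016), had 13.5, 12.3 and 11.4 FPKM in 3D, against 8.4, 8.62 and 7.8 in 2D. The groups did not overlap and the log2 change was 0.53 (SE 0.10, limma adjusted p = 0.00377), and POLD3, an accessory subunit, averaged 4.4 ± 0.418 in 3D and 2.29 ± 0.433 in 2D (log2 change 0.72). POLD2, the second subunit (chromosome 7, 44114681 to 44124358), had 1.98, 1.92 and 1.71 FPKM in 3D, against 1.69, 1.74 and 1.45 in 2D, which overlapped. It did not pass (log2 change 0.13, 95% interval -0.09 to 0.35, adjusted p = 0.281), nor with GENCODE 29 lengths, where its level was 23.6 ± 1.77 in 3D and 20.6 ± 1.98 in 2D (log2 change 0.19, adjusted p = 0.174). The ratio of POLE to POLD1 was 0.65, 0.827 and 0.864 in 3D, against 0.32, 0.372 and 0.433 in 2D, higher in each 3D library.

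PCNA, the ring that tethers polymerases to DNA, and most of its loader genes rose. PCNA (chromosome 20, 5114953 to 5126626) had 133.6, 122.5 and 114.5 FPKM in 3D replicates 1 to 3, against 45.6, 45.7 and 43.3 in 2D replicates 1 to 3. The groups stood far apart relative to their spread, and the log2 change was 1.44 (SE 0.09; limma adjusted p = 0.000231). Replication factor C opens the ring and places it on DNA, and its 5 genes rose by unequal amounts. RFC3 (chromosome 13, 33818049 to 33966558) had 38.3, 30.9 and 31.7 FPKM in 3D, against 11.2, 12.7 and 12.3 in 2D (log2 change 1.40, adjusted p = 0.000313). RFC4 (chromosome 3, 186789880 to 186807058) had 6.72, 6.47 and 6.77 FPKM in 3D, against 4.58, 4.15 and 4.23 in 2D (log2 change 0.53, adjusted p = 0.0022). Neither overlapped, and RFC5, RFC2 and the large subunit RFC1 lay between them in change at 1.02, 0.92 and 0.56.

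The CTF18 loader is a second clamp loader that shares the small RFC subunits and serves cohesion of sister chromatids. Among the 47 genes it held 1 that rose and 1 that did not pass. DSCC1, a subunit particular to that loader (chromosome 8), averaged 26.5 ± 4.2 FPKM in 3D and 10.9 ± 0.494 in 2D (log2 change 1.20, limma adjusted p = 0.00053). CHTF18, its large subunit (chromosome 16, 788046 to 800737), had 4.43, 4.53 and 4.0 FPKM in 3D, against 4.9, 5.04 and 4.28 in 2D. The groups overlapped and CHTF18 did not pass (log2 change -0.11, 95% interval -0.34 to 0.12, adjusted p = 0.379); it was the 1 member of the 47 with a lower mean in 3D. The ratio of DSCC1 to CHTF18 was 7.07, 5.24 and 6.11 in 3D, against 2.15, 2.28 and 2.51 in 2D, higher in each 3D library. CHTF8, a further subunit of that loader, is not among the 47 genes. It averaged 2.71 ± 0.47 FPKM in 3D and 2.18 ± 0.234 in 2D and did not pass (log2 change 0.22, limma adjusted p = 0.166). The span of CHTF18 holds part of RPUSD1 and GNG13 on the other strand, and no source used here states whether reads were counted by strand. In all, 24 of the 47 genes share their span with a gene on the other strand, among them FEN1, RFC4 and RFC5, which rose.

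Genes that bind and process single strands divided into those that rose and those that did not pass. FEN1, the flap nuclease that trims Okazaki fragments (chromosome 11, 61792637 to 61797244), had 41.0, 35.0 and 32.7 FPKM in 3D replicates 1 to 3, against 10.7, 9.39 and 9.91 in 2D replicates 1 to 3. Its mean was 3.62-fold higher, without overlap (log2 change 1.75, SE 0.11, limma adjusted p = 0.000218). LIG1, the ligase that seals the fragments, averaged 6.11 ± 0.7 FPKM in 3D and 2.59 ± 0.17 in 2D (log2 change 0.98). DNA2, a nuclease and helicase that cuts long flaps (chromosome 10, 68414064 to 68472121), had 6.1, 5.85 and 5.92 FPKM in 3D, against 2.14, 2.39 and 2.2 in 2D (log2 change 1.10, adjusted p = 0.000296). Its groups did not overlap. RNASEH2A, the catalytic subunit of ribonuclease H2, which removes RNA from DNA (chromosome 19, 12806556 to 12815201), had 9.54, 8.9 and 7.39 FPKM in 3D, against 8.7, 7.6 and 6.15 in 2D. These overlapped, and it did not pass (log2 change 0.18, 95% interval -0.15 to 0.52, adjusted p = 0.317). The ratio of FEN1 to RNASEH2A was 4.22 ± 0.26 in 3D and 1.36 ± 0.219 in 2D.

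Replication protein A, the trimer that coats single-stranded DNA, showed the same division. RPA1, the large subunit, averaged 46.4 ± 3.47 FPKM in 3D and 28.3 ± 0.827 in 2D (log2 change 0.69, limma adjusted p = 0.00115). RPA2, the middle subunit (chromosome 1, 27891524 to 27914746), had 16.8, 16.1 and 15.2 FPKM in 3D, against 15.4, 12.5 and 13.9 in 2D, with overlap (log2 change 0.19, 95% interval -0.05 to 0.44, adjusted p = 0.157). RPA3, the small subunit (chromosome 7, 7636518 to 7718607), had 4.15, 3.67 and 3.55 FPKM in 3D, against 3.9, 3.07 and 3.07 in 2D, also with overlap (log2 change 0.14, 95% interval -0.12 to 0.41, adjusted p = 0.313). The ratio of RPA1 to RPA2 was 3.0, 2.75 and 2.93 in 3D, against 1.89, 2.21 and 2.02 in 2D. The ratios given here between pairs of genes were chosen after their values were seen and carry no test.

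Fork protection was the step in which each gene rose by a log2 change over 1. CLSPN, claspin, which links the fork to the checkpoint kinase CHK1 (chromosome 1, 35720218 to 35769967), had 9.67, 8.41 and 8.39 FPKM in 3D replicates 1 to 3, against 2.01, 2.05 and 1.78 in 2D replicates 1 to 3. Its log2 change was 1.73 (SE 0.10, limma adjusted p = 0.000185) and its mean 4.53-fold higher. TIMELESS and TIPIN form a pair that keeps the polymerase and helicase coupled. TIMELESS (chromosome 12, 56416373 to 56449403) had 20.3, 19.9 and 18.8 FPKM in 3D, against 6.33, 7.87 and 7.28 in 2D (log2 change 1.34, adjusted p = 0.00029). TIPIN (chromosome 15, 66336206 to 66386746) had 8.91, 8.06 and 6.95 in 3D, against 2.74, 3.23 and 2.44 in 2D (log2 change 1.24, adjusted p = 0.000481). No fork protection gene overlapped between groups. WDHD1, known as AND-1, which ties polymerase alpha to the helicase (chromosome 14, 54938950 to 55027105), had 17.8, 15.9 and 16.7 FPKM in 3D, against 6.33, 8.74 and 7.95 in 2D (log2 change 1.05, adjusted p = 0.000813).

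Promoters were examined because most of these genes rose together and many are known E2F targets. RefSeq promoters of 300 bases (250 before the start and 50 after, GRCh38.p14) were held for 40 of the 47 genes. The search used 1 window per gene, so the matches depend on the start taken. The E2F letters searched were TTCCCGC, its variant TTCGCGC, also TTGCCGC, and besides these TTGGCGC, each on both strands with overlapping matches counted singly. They occurred in 25 of the 40 promoters (62.5%). The same letters were found in 13.1% of all 27305 promoters and in 21.9% of the 8378 promoters matched to tested genes. At least 2 matches occurred in 9 of the 40 (22.5%), against 1.81% of all promoters and 3.41% of those matched to tested genes. A match was present in 24 of 34 genes that rose and in 0 of 5 that did not pass (ORC4, DBF4, POLD2, CHTF18 and RNASEH2A). RPA2 and RPA3, which also did not pass, had no promoter entry. Of the 15 tested genes without a match 10 rose, and their median log2 change was 0.53 over all 15. The median was 1.05 for the 15 with 1 match and 0.98 for the 9 with 2 or 3 matches. A search for the CHR letters, TTTGAA or else TTCGAA on both strands, which mark many genes of G2 and mitosis, matched 1 of the 40 (2.5%, DBF4), against 16.6% of all promoters and 10.9% of those matched to tested genes. These matches describe letters in the windows and do not show binding. The list was chosen by function and holds many known E2F targets, so the excess over other promoters may come from that choice. Shares of matches were not computed for genes outside the list that rose or did not pass. The differences by call and by number of matches were not tested.

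**Figure D4:**
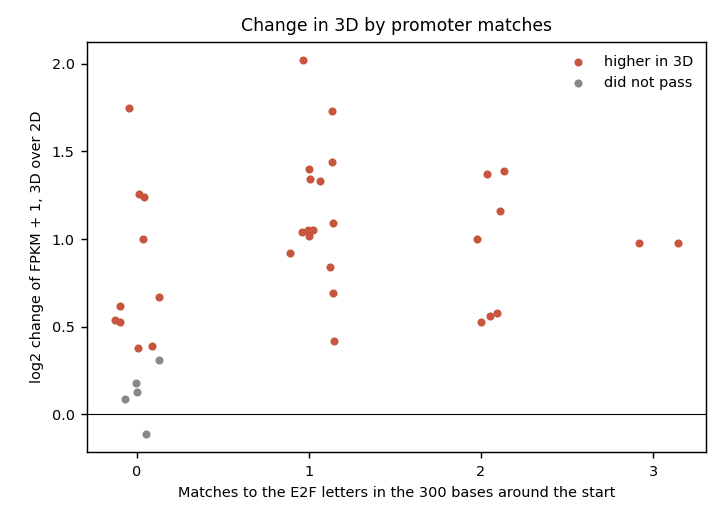
Each point is 1 of the 39 tested genes with a promoter entry, with the number of matches to the E2F letters on the x axis (shifted a little sideways to part the points) and the log2 change of FPKM + 1, 3D over 2D, on the y axis. Genes that did not pass (grey) have 0 matches, and among genes with 0 matches the changes run from -0.11 to 1.75.

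The promoters of the genes with the largest changes on the log2(FPKM + 1) scale, CDC6 and FEN1, of the gene with the smallest, CHTF18, and of the genes with most matches, LIG1 and POLA1, are shown 5′ to 3′ on the strand of the gene. On that scale FEN1 (1.75) and CLSPN (1.73) were close, and CLSPN, whose promoter held 1 match, had the larger ratio of means (4.53 against 3.62 for FEN1). Capitals mark matches to the E2F letters. The pair LIG1 and POLA1 was chosen after the matches were seen.
CDC6, chr17:40287629-40287928, plus strand: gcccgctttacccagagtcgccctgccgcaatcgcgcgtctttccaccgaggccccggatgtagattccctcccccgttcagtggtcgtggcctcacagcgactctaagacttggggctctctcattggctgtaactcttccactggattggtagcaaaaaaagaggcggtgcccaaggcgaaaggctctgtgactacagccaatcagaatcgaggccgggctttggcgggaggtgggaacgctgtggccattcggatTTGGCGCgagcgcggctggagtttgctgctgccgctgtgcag
FEN1, chr11:61792661-61792960, plus strand: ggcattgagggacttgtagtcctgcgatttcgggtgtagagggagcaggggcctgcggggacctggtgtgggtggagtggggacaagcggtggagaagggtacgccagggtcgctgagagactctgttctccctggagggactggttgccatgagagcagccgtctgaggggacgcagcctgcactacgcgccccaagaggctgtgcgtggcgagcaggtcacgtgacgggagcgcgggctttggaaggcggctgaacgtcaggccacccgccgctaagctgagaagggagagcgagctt
CHTF18, chr16:788370-788669, plus strand: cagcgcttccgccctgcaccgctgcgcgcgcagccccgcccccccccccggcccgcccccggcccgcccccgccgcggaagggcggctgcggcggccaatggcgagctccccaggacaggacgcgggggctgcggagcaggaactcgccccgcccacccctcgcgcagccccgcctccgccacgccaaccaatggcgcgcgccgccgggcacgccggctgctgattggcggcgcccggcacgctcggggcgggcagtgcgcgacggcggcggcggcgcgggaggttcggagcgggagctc
LIG1, chr19:48170295-48170594, minus strand: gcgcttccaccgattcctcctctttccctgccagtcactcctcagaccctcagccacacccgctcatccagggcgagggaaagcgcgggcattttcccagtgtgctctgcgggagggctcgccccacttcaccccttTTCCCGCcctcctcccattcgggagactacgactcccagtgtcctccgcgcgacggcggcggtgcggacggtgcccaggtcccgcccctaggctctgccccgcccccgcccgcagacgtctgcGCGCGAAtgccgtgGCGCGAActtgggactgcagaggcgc
POLA1, chrX:24693668-24693967, plus strand: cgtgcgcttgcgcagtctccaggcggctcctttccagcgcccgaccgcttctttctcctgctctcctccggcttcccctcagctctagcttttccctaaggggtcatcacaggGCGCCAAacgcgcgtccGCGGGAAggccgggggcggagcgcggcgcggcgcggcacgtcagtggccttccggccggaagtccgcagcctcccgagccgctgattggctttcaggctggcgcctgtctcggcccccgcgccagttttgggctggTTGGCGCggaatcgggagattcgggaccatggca
CDC6 held 1 match, whose first base lies at position 9 counted from the start as 1, whereas FEN1 and CHTF18 held none. LIG1 held 3, at positions -113, 11 and 25, and POLA1 held 3, at -137, -120 and 17.

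Across the 47 genes, 3D replicate 1 held the highest value of its group for 38, where it did so for 42.9% of all tested genes. Without 3D replicate 1, 39 of 46 genes were higher, where 3935 of all 12843 tested genes were. The median log2 change of the 46 was then 0.91, beside 0.14 over all tested genes.

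The rest of the pathway was read from 3 further lists. Over all tested genes 33.3% were higher, 18.1% were lower and 5.52% were higher with a log2 change of at least 1. Of 36 other replication factors, 33 were tested, 24 rose and 1 fell, with a median log2 change of 0.65. MCM3 and MCM2, subunits of the helicase, had log2 changes of 2.00 and 1.80, and MCM10, a separate factor of firing and elongation, 1.92, whereas ETAA1, an activator of the checkpoint kinase ATR, and RAD17, a checkpoint clamp loader, did not pass (0.00 and 0.07). Of 29 regulators of the G1/S transition, 25 were tested, 16 rose and 3 fell (RBL2, CDKN1B and CDKN2D), with a median of 0.67. CDC25A, the phosphatase that activates CDK2, E2F3 and RBL1 had log2 changes of 1.75, 1.27 and 1.40, and the CDK inhibitors CDKN1A and CDKN2C did not pass. Of 30 G2/M genes 19 rose and 2 fell (NEK2 and UBE2C), with a median of 0.36 and no log2 change of 1 or more. There KIF11, KIF23 and NDC80 rose, and CDC25B and TTK did not pass (-0.01 and 0.01). The differences between lists were not tested.

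**Figure D5:**
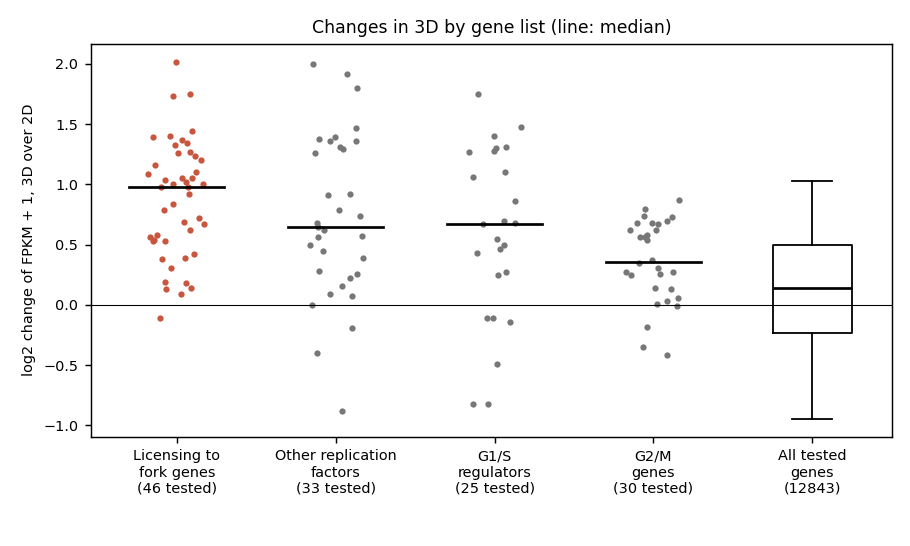
Points are tested genes of each list, with the log2 change of FPKM + 1, 3D over 2D, on the y axis and a line at the median; the box for all 12843 tested genes spans the quartiles with whiskers at the 5th and 95th percentiles. Medians stand at 0.98 for the 46 licensing to fork genes, 0.65 for other replication factors, 0.67 for G1/S regulators, 0.36 for G2/M genes and 0.14 for all tested genes.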

How the data were processed

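RNA enriched for poly(A) was sequenced in 6 libraries, per the labels' protocols. Values are FPKM, deposited by the authors as 1 table. FastQC, fastp, HISAT2, StringTie, edgeR and GRCh38 are named in the submitters' processing notes, without roles. The sources used here name no annotation, counting settings or strandedness, and 32 of the 47 genes share their span with another annotated gene, so overlapping reads may be included. Groups were compared in R 4.3.3 with limma 3.58.1 and statmod 1.5.0 (robust fit with a trend) on log2(FPKM + 1), for genes with at least 1 FPKM in at least 3 libraries, with 2-sided p-values and Benjamini-Hochberg adjustment over all tested genes. An exact permutation test of 3 against 3 cannot go below p = 0.1. Whole reads were found for 33242 of 33243 genes above 0, and intervals are 95%. The gene lengths and reads were worked out from the steps between FPKM values. The fit was tested on simulated data.

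The members and lists were chosen with earlier results of these data known. Described library by library were, in each step, genes with the 2 largest and 2 smallest changes and each that did not pass or was not tested; of other lists, those with the 3 smallest and 2 largest adjusted p. Further names were chosen after their values were seen. The level of 1 marker gene is not reported here. Alternatives were other pseudocounts, filters, scalings, left-out libraries, a replicate block, voom and GENCODE 29 lengths.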

Additional observations from a re-analysis of the deposited data

How the results depend on the processing

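Of 630 values of single genes under the alternatives, 616 kept their side of the threshold. A call was lost in 12 (ORC2, ORC3, GMNN and TICRR) and gained in 2 (DBF4). The other 35 called genes passed in each alternative that tested them. No called gene reversed its direction. Genes that did not pass were not checked for direction, and ORC4 went from 0.09 to -0.02 with median-ratio scaling. The count of the 47 genes that rose was 30 (of 32 tested) to 41. With a minimum of 5 FPKM, fewer genes were tested, and 2134 rose and 1319 fell of 5715 in all. All 5 firing genes and all 4 polymerase genes that were then tested rose, and 1 of 28 G2/M genes fell. With median-ratio scaling 5 licensing genes rose, 2 of the other replication factors fell, the median of all tested genes was 0.01 and of G2/M genes 0.19; with upper-quartile scaling these were 5, 2, 0.02 and 0.21. With no filter on low values the median of all genes was 0.03. With a library left out, 1 to 2 of the other replication factors and 1 to 2 of the G2/M genes fell. The count of G2/M genes that rose went from 19 to 14 with either scaling and without 3D replicate 2 or 3. The G1/S regulators that fell went from 3 to 2 in several alternatives, among them no filter on low values. With the replicate block, 2 of the other replication factors fell. Of the 46 tested replication genes 39 rose, as without the block, where 4291 of all 12843 tested genes rose. Deviations of same-numbered libraries correlated at 0.0837, -0.0172 and 0.184, so the numbers were not taken to pair the samples, and not every library correlated best with its own number. The cause of these moves was not tested where no reason is given. At 84 reads or more per library, depth limits RFC2, DBF4 and POLE2 most.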

Other observations

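Subunits of the same enzymes that are not among the 47 genes were read from the list of other replication factors, and these were chosen after their values were seen. POLD4, the smallest subunit of polymerase delta, had 2.57, 3.05 and 3.26 FPKM in 3D, against 7.21, 5.6 and 6.09 in 2D. The groups did not overlap, and it fell by 0.88 on the log2 scale (SE 0.12, limma adjusted p = 0.00124), the 1 gene of that list that fell. POLE3, a histone-fold subunit of polymerase epsilon, averaged 24.0 ± 2.08 FPKM in 3D and 16.0 ± 0.961 in 2D (SD, n = 3 each) and rose (log2 change 0.56). Its partner POLE4 had 8.12, 5.9 and 4.89 FPKM in 3D, against 9.64, 9.17 and 6.78 in 2D, with overlap, and did not pass (log2 change -0.40, adjusted p = 0.123).

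RNASEH1, a ribonuclease that removes RNA paired with DNA, averaged 11.2 ± 0.186 FPKM in 3D and 3.95 ± 0.558 in 2D and rose (log2 change 1.31, limma adjusted p = 0.000313), beside RNASEH2A, which did not pass. The other subunits of ribonuclease H2 lay under the filter, RNASEH2B at 0.451 ± 0.0731 FPKM in 3D and 0.23 ± 0.0238 in 2D and RNASEH2C at 0.857 ± 0.186 in 3D and 0.93 ± 0.123 in 2D. Their implied lengths were 50045 and 18701 bases, against exon lengths of 26291 and 5101 in GENCODE 29. MKI67, a marker of cycling cells, had 33.6, 42.4 and 46.1 FPKM in 3D, against 39.5, 28.7 and 32.6 in 2D, with overlap, and did not pass (adjusted p = 0.198). The ratio of PCNA to TOP2A, a gene that peaks in G2, was 1.25, 1.16 and 1.01 in 3D, against 0.547, 0.483 and 0.479 in 2D.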
